A study of Setaria viridis with 5 samples.

Results

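In the leaf of Setaria viridis, 12 genes of 35214 listed met a rule for being higher in every shr2 library, at least 2 times the level of any wild-type library, and these 12 genes are described here. They were chosen on the counts themselves. The unique molecular identifiers (UMIs, tags that mark 1 captured RNA molecule each) of all barcodes of a library were summed and scaled to CPM, the counts in every 1000000 of the library total. A mean over the 5 libraries of 10 CPM or more kept 7284 genes, and a gene was a member when its lowest shr2 CPM was at least 2 times its highest wild-type CPM. This choice took 0.165% of the kept genes, and 8 kept genes met the mirror-image rule of being lower in shr2. Since the difference between the genotypes chose the members, their levels in shr2 and wild type are a description, and no test or p-value is given for them.

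The libraries came from protoplasts, cells released from their walls by enzymes, made from a middle piece of the leaf. The plants were 4 weeks old and of strain A10, a line of the C4 grass Setaria viridis. There were 2 libraries of the genotype labelled shr2 and 3 of wild type. Per the series' design, the mutants lack function of SHORT ROOT and were made with CRISPR. The comparison addresses what SHORT ROOT does in setting cell identities in a C4 leaf. The protocol names 3 independent replicates of each genotype, and 1 more of shr2 is not analysed here. Whether each replicate came from 1 plant or several is not given in the sources used here, nor is the number of mutant lines or how the wild type was bred beside them. SHORT ROOT is a GRAS-family transcription factor known from the Arabidopsis root, where it moves from the inner tissue into the neighbouring cell layer and is needed for the endodermis to form. Leaves of C4 grasses divide photosynthesis between mesophyll cells and the bundle sheath, the layer around the veins that has been compared with the endodermis.

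The identifiers in the files (Sevir numbers) carried no gene names, and 0 of them matched the gene table used here, which held 34587 genes. No member is therefore given a name, a product or a role, the targeted gene could not be read in the libraries to check their labels, and leaf cell types could not be recognised by markers. The identifier itself gives a prefix, 1 to 9 for a chromosome, and a number that follows the order of the genes.

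Library depth was 76736245 and 62373961 UMIs in shr2 replicates 1 and 2, and between 45450710 and 86869180 UMIs in the wild-type libraries. The shr2 libraries held 10673 and 5271 barcodes, against 8400, 5222 and 4730 in wild type, where the protocol states about 10000 loaded cells for each. Median UMIs per barcode were lowest in shr2 replicate 1 (6837) and highest in shr2 replicate 2 (11123), with wild type between 9734 and 10119.5. Any 2 libraries shared 8 to 19 barcodes. Wild-type replicate 1 stood apart from the other wild-type libraries. The SD over kept genes of the log2 ratio of CPM was 0.68 between it and either of them, 0.12 between wild-type replicates 2 and 3, and 0.44 between it and shr2 replicate 1. By the same measure the shr2 libraries were 0.56 apart. Each lay nearer to wild-type libraries than to the other: shr2 replicate 1 to wild-type replicate 1, and shr2 replicate 2 to wild-type replicates 2 (0.45) and 3 (0.46). Over the kept genes the libraries thus did not group by genotype. The results below are therefore given library by library, and the choice of members is repeated with each library left out.

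The 12 members together took 605 and 640 CPM in shr2 replicates 1 and 2, against 201, 195 and 190 CPM in wild-type replicates 1, 2 and 3. Both shr2 sums were well above every wild-type sum. The wild-type sums lay close to each other, although wild-type replicate 1 differed from the other wild-type libraries over all genes. In sums over all cells, more cells of a type and more RNA per cell cannot be told apart. The members ranged from low to moderate level, and the UMIs behind a member in a library numbered 197 to 7682.

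The members with the highest shr2 levels were Sevir.9G149100, Sevir.4G126600, Sevir.1G183300, Sevir.3G413700 and Sevir.1G201100. Sevir.9G149100 had 93.9 and 119 CPM in shr2 replicates 1 and 2, against 16.1, 28.7 and 28.2 CPM in wild-type replicates 1, 2 and 3. Sevir.4G126600 had 100.1 and 105 CPM in shr2 and 46.4, 48.8 and 49.6 CPM in wild type. The 2 genes had like levels in shr2 and unlike ones in wild type, so Sevir.9G149100 averaged 4.37 times its wild-type level and Sevir.4G126600 2.12 times, the smallest ratio of means among the members. Sevir.1G183300 had 71.0 and 76.7 CPM in shr2, against 20.8, 17.6 and 17.0 CPM in wild type. Sevir.3G413700 stood at 63.4 and 71.1 CPM in shr2 and at 26.6, 26.3 and 25.8 CPM in wild type. Its wild-type values were the most even of the 5 genes and included wild-type replicate 1. Sevir.1G201100 had 53.1 and 72.2 CPM in shr2 and 13.8, 14.1 and 12.9 CPM in wild type. Its ratio of means, 4.60, and its ratio of the lowest shr2 to the highest wild-type library, 3.76, were the largest of the 12.

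Sevir.9G171400, Sevir.5G378900 and Sevir.9G151300 had intermediate levels. Sevir.9G171400 measured 49.4 and 49.8 CPM in shr2, against 18.5, 14.2 and 12.4 CPM in wild type. Sevir.5G378900 had 44.0 and 32.0 CPM in shr2 and 15.5, 5.74 and 9.06 CPM in wild type. Sevir.9G151300 had 29.3 and 26.9 CPM in shr2 and 13.3, 13.2 and 12.6 CPM in wild type. In the first of these wild-type replicate 1 was the highest wild-type library, in the second it was well above the other two, and in the third the wild-type libraries were nearly alike.

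The remaining members were low in wild type. Sevir.9G205000 had 32.7 and 21.9 CPM in shr2 and 10.8, 7.60 and 7.41 CPM in wild type. Sevir.2G446400 had 29.1 and 17.7 CPM in shr2, against 7.18, 5.06 and 4.33 CPM in wild type, with the widest gap between the shr2 libraries of these 4 genes. Sevir.5G455300 had 19.4 and 27.4 CPM in shr2 and 6.38, 7.31 and 4.91 CPM in wild type. Sevir.5G415900 had 19.7 and 20.7 CPM in shr2 and 5.99, 6.54 and 5.52 CPM in wild type, and so differed least between replicates of either genotype. The last 3 of these genes were below 10 CPM in every wild-type library and passed the limit on low values through their shr2 level, while 7 of the 12 members had at least 10 CPM in every library.

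**Figure D1:**
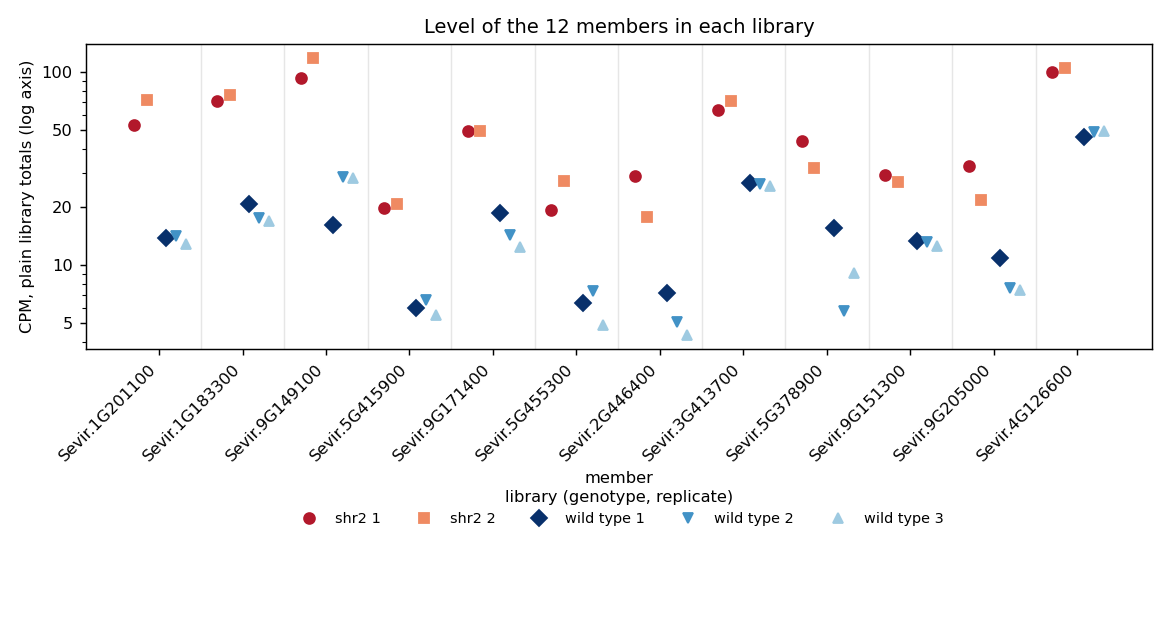
CPM of each of the 12 members (log axis) in shr2 replicates 1 and 2 (red and orange) and wild-type replicates 1, 2 and 3 (blues), ordered from the largest to the smallest ratio of lowest shr2 to highest wild-type library. The gap between the genotypes is widest for Sevir.1G201100 (ratio 3.76). Wild-type replicate 1 is the highest wild-type library in 7 members but the lowest for Sevir.9G149100 and Sevir.4G126600.

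The limit of 2 fell inside a continuous run of values. Just inside it were Sevir.9G151300, Sevir.9G205000 and Sevir.4G126600, each at a ratio of lowest shr2 to highest wild-type CPM of 2.02. Just outside were Sevir.2G061200 at 1.98, Sevir.4G034300 at 1.92 and Sevir.8G058000 at 1.91. The last of these had 96.6 and 71.8 CPM in shr2, against 37.7, 12.7 and 14.5 CPM in wild type, and it was wild-type replicate 1 that kept it outside. Over all kept genes the median of the same ratio was 0.793.

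Within a genotype the members were about as even as other genes. The median ratio of the higher to the lower shr2 library was 1.19 for the members and 1.26 for all kept genes, and that of the highest to the lowest wild-type library was 1.34 for the members and 1.38 for all kept genes. The choice of members favours genes with even libraries, so these values are given as a description. Of the 12 members, 8 were higher in shr2 replicate 2 than in shr2 replicate 1, while 35.8% of all kept genes were. In wild type, replicate 1 was the highest library for 7 members and replicate 3 the lowest for 9.

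The rule was also applied without each library in turn, and the genes it chose were read in the library left out. That library is compared with the same libraries of the other genotype that chose the genes, so the reading is not independent of the choice, and the share over all kept genes beside it is a description, not the value expected with no difference. A chosen gene that reaches 2-fold in the left-out library meets the full ratio of the rule, so these counts mostly repeat the membership. The chosen genes included 10 members when either shr2 library was left out and all 12 when any wild-type library was. With shr2 replicate 1 left out the rule chose 19 genes. Of these, 10 (52.6%), all of them members, reached 2-fold in it, against 0.684% of all kept genes. With shr2 replicate 2 left out the rule chose 58 genes, of which 10 (17.2%), again all members, reached 2-fold, against 0.205%. With wild-type replicate 2 left out the rule chose 15 genes, and in wild-type replicate 2 itself 14 of them were at least 2-fold below the lower shr2 library, against 2.83% of all kept genes. With wild-type replicate 3 left out it was 14 of 14 genes, against 2.79%. Wild-type replicates 2 and 3 lie so close to each other that neither reading is far from the choice itself. Without wild-type replicate 1 the rule chose 152 genes in place of 12, and 14 of them (9.21%) held at 2-fold in that library, against 0.348% of all kept genes. The length of the list thus changed most with wild-type replicate 1. Leaving out a library cannot lower the ratio of lowest shr2 to highest wild-type CPM, so every member still met it. Without either shr2 library, 2 members fell below the limit of 10 CPM on the mean.

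Across single cells the members were detected in a larger share of cells in each shr2 library than in every wild-type library. To compare libraries of unequal depth, each cell was thinned at random to 3000 UMIs. This left out 1738 (16.3%) and 565 (10.7%) shallower cells in shr2 replicates 1 and 2, and 965 (11.5%), 831 (15.9%) and 713 (15.1%) in wild-type replicates 1, 2 and 3. All 12 members had shares that did not overlap between the genotypes, against 16.1% of all kept genes higher in both shr2 libraries. The same contrast chose the members, so nothing is read from that count. Intervals below are 95% exact (Clopper-Pearson) intervals and cover counting error only.

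Sevir.9G149100 was detected in 24.4% (23.5 to 25.3%) and 29.6% (28.3 to 30.9%) of thinned shr2 cells, and in 4.47% (4.01 to 4.96%), 7.95% (7.17 to 8.79%) and 7.05% (6.27 to 7.88%) of wild-type cells. Sevir.4G126600 was detected in 25.7% and 26.2% of shr2 cells and in 12.8%, 13.4% and 12.4% of wild-type cells. These were the most widely detected members in shr2, and in wild type Sevir.4G126600 was found in more cells than Sevir.9G149100 in every library. Sevir.3G413700 was found in 17.4% and 19.1% of shr2 cells and in 8.08%, 7.88% and 8.04% of wild-type cells. Sevir.1G183300 was found in 15.9% and 15.3% of shr2 cells and in 5.65%, 3.73% and 4.01% of wild-type cells. Sevir.1G201100 was found in 9.84% and 9.88% of shr2 cells and in 3.12%, 2.94% and 2.49% of wild-type cells. For these 3 genes the shr2 libraries were close to each other, although their sums over all cells differed more for Sevir.1G201100.

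At the low end, Sevir.5G455300 was detected in 3.14% (2.79 to 3.53%) and 3.21% (2.72 to 3.75%) of shr2 cells and in 0.955% (0.747 to 1.20%), 0.774% (0.537 to 1.08%) and 0.622% (0.403 to 0.917%) of wild-type cells. Sevir.2G446400 was detected in 3.49% and 2.19% of shr2 cells and in 1.09%, 0.501% and 0.473% of wild-type cells. Sevir.5G415900 was detected in 4.60% and 4.87% of shr2 cells and in 1.41%, 1.64% and 1.12% of wild-type cells. The last of these was about as high in CPM as Sevir.5G455300 in shr2 replicate 1 but was seen in more cells. The other members, Sevir.9G151300, Sevir.9G171400, Sevir.5G378900 and Sevir.9G205000, lay between 4.16% and 8.61% in shr2 and between 0.996% and 3.85% in wild type.

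Without thinning the shares were higher. Sevir.9G149100 was detected in 43.4% and 60.9% of all shr2 barcodes and in 13.3%, 20.5% and 19.1% of all wild-type barcodes. Sevir.4G126600 was detected in 46.0% and 60.7% of shr2 barcodes and in 34.3%, 33.7% and 34.3% of wild-type barcodes. For both genes the unthinned share was larger in shr2 replicate 2, the library with the most UMIs per barcode. All 12 members also had non-overlapping unthinned shares, against 5.02% of all kept genes higher in both shr2 libraries, and so they did after thinning to 1000 UMIs. UMIs of free RNA cannot be set apart from these shares, since no cell type known to lack the members could be recognised.

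The members differed in how their UMIs were spread over cells. The share of cells that detected a gene was divided by the share that would detect it if its UMIs fell evenly over cells, so that values near 1 mark even genes and lower values mark genes whose UMIs gather in few cells. The median over all kept genes was between 0.954 and 0.969 in the 5 libraries. Sevir.4G126600, Sevir.9G151300, Sevir.3G413700 and Sevir.9G149100 were even, with lowest values over the libraries of 0.975, 0.971, 0.9504 and 0.947. Sevir.9G205000 lay slightly lower, between 0.901 and 0.963. At the other end, Sevir.5G455300 lay between 0.404 and 0.657 and Sevir.2G446400 between 0.410 and 0.584. Sevir.9G171400 ranged from 0.482 to 0.732, Sevir.5G378900 from 0.547 to 0.741 and Sevir.1G201100 from 0.586 to 0.781. Sevir.1G183300 and Sevir.5G415900 stood between these and the even members, from 0.780 to 0.884 and from 0.788 to 0.906. The libraries of the genotypes overlapped for every member but Sevir.1G201100, Sevir.5G415900 and Sevir.3G413700, whose shr2 values were below every wild-type value. The share of all kept genes without overlap in this value was not computed, so nothing is read from that count. Whether spread differs by genotype was not tested, as the members also differ in level.

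**Figure D2:**
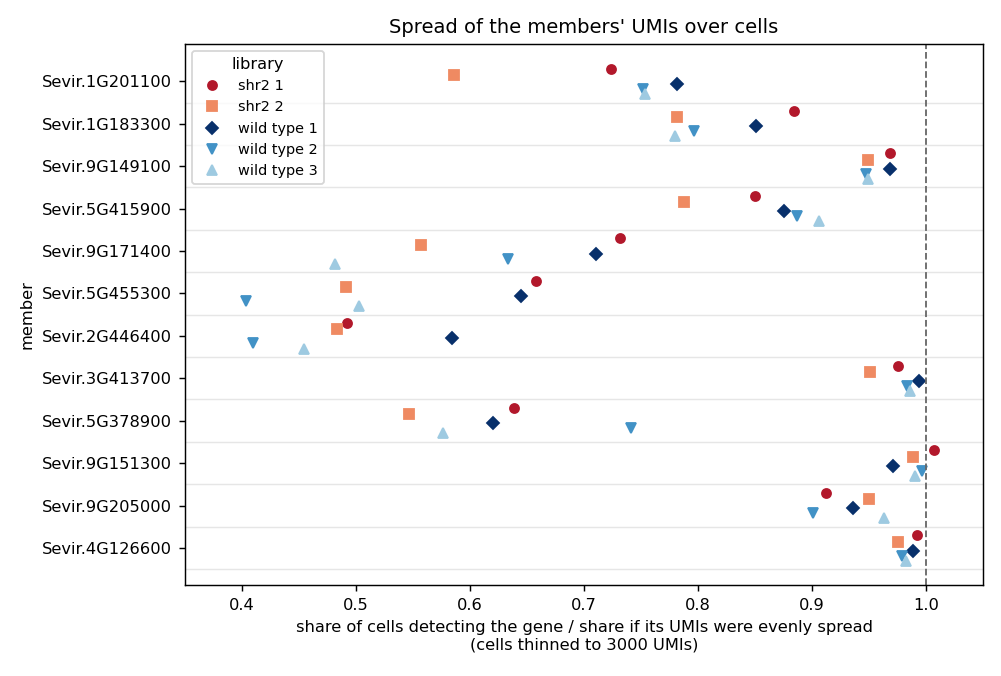
Share of thinned cells (3000 UMIs each) that detected a member, divided by the share expected if its UMIs fell evenly over cells, in shr2 (red and orange) and wild-type libraries (blues); the dashed line marks even spread. Sevir.4G126600, Sevir.9G151300, Sevir.3G413700 and Sevir.9G149100 lie near the line in every library, and Sevir.5G455300 and Sevir.2G446400 lie between 0.404 and 0.657.

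The gathering of UMIs in few cells was strong for the patchy members. In shr2 replicates 1 and 2, the 1% of thinned cells with the most UMIs of Sevir.2G446400 held 59.1% and 74.8% of its UMIs. For Sevir.5G455300 the same cells held 54.6% and 62.9%. For the even Sevir.4G126600 it was 8.50% and 8.48%, and for the even but rarer Sevir.9G151300 it was 15.1% and 18.0%. These shares rise as a gene gets rarer, so the gaps between members also reflect their levels. The shares were not compared between genotypes, where the wild-type levels were lower.

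Correlation of the members across cells was weak in general and stronger among some of the patchy ones. Within each library, Pearson's r between thinned counts (log of 1 plus the count) was computed across cells for all 66 pairs of members. Cells of a library share its RNA pool and depth after thinning, so r is a description with no p. The median r over the 66 pairs was 0.0131 and 0.0106 in shr2 replicates 1 and 2, and 0.00523, 0.00617 and 0.0123 in wild-type replicates 1, 2 and 3. The median over pairs of all kept genes was near 0 in every library. Pairs at r of 0.1 or more numbered 5 and 9 of 66 in shr2, and 1, 1 and 7 in wild type. Among pairs of all kept genes, 0.526% and 0.825% reached that value in shr2, and 0.829%, 1.16% and 1.22% in wild type.

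Joining members at r of 0.1 or more in shr2 replicate 1 gave 1 group of 5 genes and left the other 7 alone. The group was Sevir.9G171400, Sevir.5G455300, Sevir.5G415900, Sevir.5G378900 and Sevir.9G205000. Its edge depends on that cut. The patchy Sevir.2G446400 stayed outside with r of 0.0942, 0.0733 and 0.0605 with Sevir.9G171400, Sevir.5G455300 and Sevir.9G205000. These were above the lowest r inside the group, 0.0452. With Sevir.5G415900 and Sevir.5G378900 it had 0.00279 and 0.00502. In shr2 replicate 1, which formed the group, its 10 pairs had a median r of 0.0990. In the libraries that did not form it, the median r was 0.133 in shr2 replicate 2 and 0.0319, 0.0568 and 0.127 in wild-type replicates 1, 2 and 3. The 56 pairs outside the group had medians of 0.0115 and 0.00711 in shr2 and of 0.00252, -0.000886 and 0.00834 in wild type. The median r was thus higher inside the group than outside it in every library. In wild-type replicates 1 and 2 single pairs overlapped. The lowest r inside the group was -0.00109 and 0.00355 there, and the highest outside it was 0.0946 and 0.088. Many wild-type pairs rest on few cells, so the group as a whole is not shown in those libraries.

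Sevir.9G171400 and Sevir.5G455300 were the pair with the highest r in every library, 0.249 and 0.324 in shr2 and 0.186, 0.190 and 0.306 in wild type. They were detected together in 113 of 8935 and 80 of 4706 thinned shr2 cells, where independent detection would give 24.2 and 9.92 cells. In wild type they were found together in 24 of 7435, 9 of 4391 and 10 of 4017 cells, where independence would give 2.60, 0.604 and 0.392. Their joint detection was above independence in all 5 libraries, on few cells in wild type. Cells with at least 3 of the 5 genes made up 1.15% and 1.34% of thinned shr2 cells and 0.148%, 0.0911% and 0.174% of wild-type cells. That share rises with the level of each gene and so follows from the choice of members in part. The even members Sevir.4G126600, Sevir.3G413700 and Sevir.9G151300 stayed near 0 with all others, and Sevir.9G149100 had r as low as -0.0356 in shr2 replicate 1 and -0.0748 in shr2 replicate 2.

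**Figure D3:**
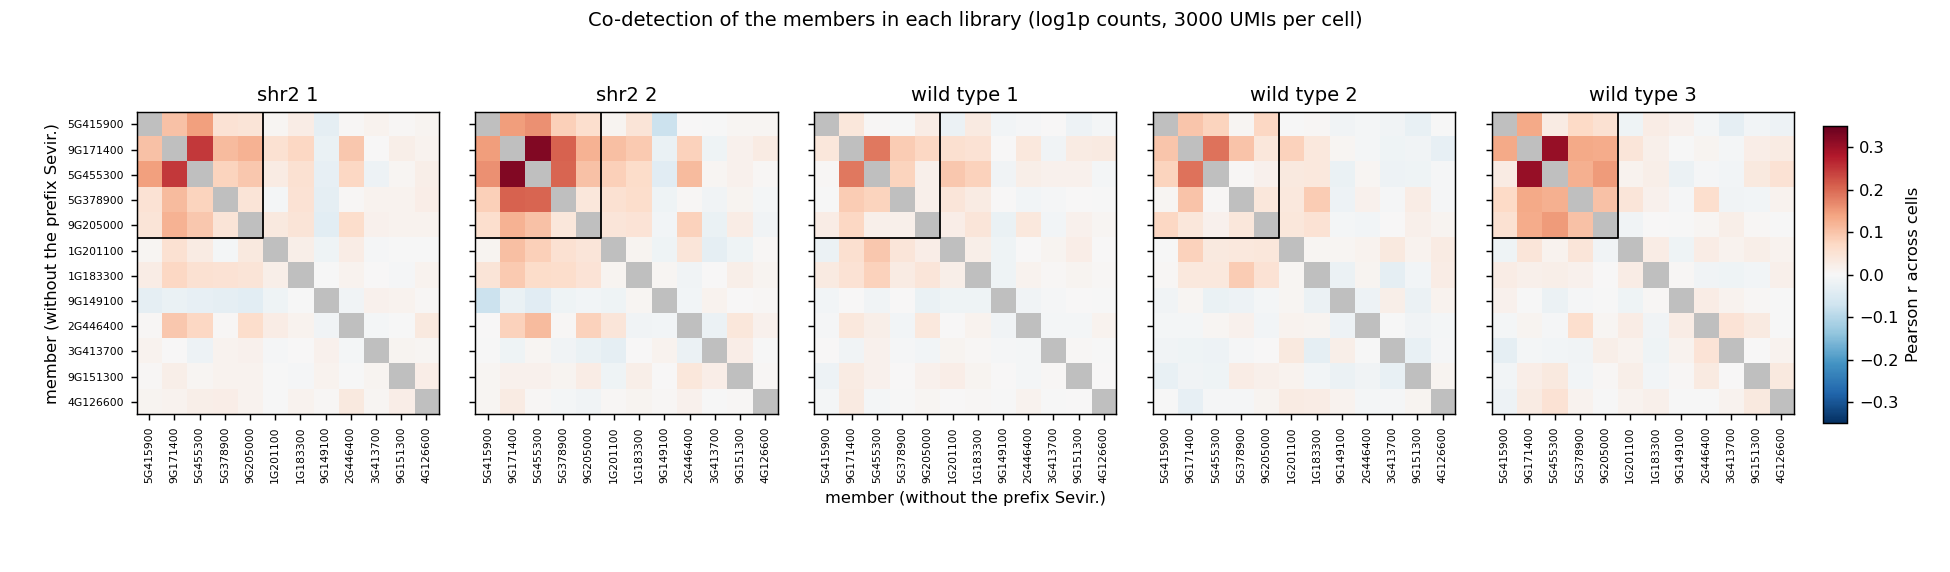
Pearson's r across thinned cells between each pair of members (colour, red positive and blue negative) in shr2 replicates 1 and 2 and wild-type replicates 1, 2 and 3; the black square encloses the group of 5 genes formed in shr2 replicate 1. The strongest cell of every panel is Sevir.9G171400 with Sevir.5G455300, from 0.186 to 0.324.

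Cells were then clustered without the members, to see in which cells the members were found. In the initial clustering 7 of 19 clusters were filled by every library with 50 cells or more, and they held 31.3% of all barcodes. There, 61 of 84 combinations of member and cluster were higher in both shr2 libraries than in every wild-type library (72.6%, against 13.1% of the combinations of all kept genes). A second clustering, chosen after the data were seen, linked each cell to 3 neighbours from every library and gave 16 clusters filled in the same way, which held 98.7% of the barcodes. In it 166 of 192 combinations were higher in both shr2 libraries (86.5%, against 14.3%). Within clusters the members are read on the same contrast that chose them, so these counts say only how widely over the cells the difference was found. The clusters below are those of the second clustering, by number, since no cell type could be named.

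Sevir.1G183300 and Sevir.4G126600 were higher in both shr2 libraries in all 16 clusters. Sevir.4G126600 was the most uniform member, with a mean per cluster of 75.7 to 114.3 CPM in shr2 and a ratio to the wild-type mean of 1.63 to 2.47. Sevir.1G201100, Sevir.9G149100, Sevir.5G415900, Sevir.3G413700 and Sevir.9G205000 were higher in 15 of 16 clusters. Sevir.9G171400 and Sevir.9G151300 were higher in 14, Sevir.5G455300 and Sevir.5G378900 in 11, and Sevir.2G446400 in 9. The next count follows in large part from the choice of members, and the same share over all kept genes was not computed. Of the combinations with at least 10 wild-type UMIs, 168 of 169 had a higher mean in shr2. The exception was Sevir.2G446400 in cluster 11, which had 5.62 and 2.17 CPM in shr2 and 7.69, 9.85 and 4.45 CPM in wild type, on 4 to 23 UMIs.

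The patchy members were high in few clusters. For 11 of the 12 members the cluster with the highest mean was the same in shr2 and wild type, and in the initial clustering this held for 8, where it differed for Sevir.9G149100, Sevir.3G413700, Sevir.9G205000 and Sevir.4G126600. The other clusterings tried gave 8 to 10 members. How many of all kept genes keep their highest cluster was not computed, so these counts are not a trait particular to the members. Sevir.9G171400 had 155.6 and 243 CPM in cluster 3 in shr2 replicates 1 and 2, against 80.3, 95.5 and 94.8 CPM there in wild type. Its mean in cluster 4 was 1.84 CPM in shr2 and 1.31 CPM in wild type. Cluster 3 held 60.6% and 61.1% of its UMIs in shr2 and 65.4%, 68.6% and 74.0% in wild type. Cluster 3 made up 14.04% and 9.77% of the barcodes in shr2 and 11.95%, 7.24% and 6.98% in wild type. The share of barcodes in cluster 3 was therefore larger in shr2 replicate 1 and wild-type replicate 1 than in the others, while the level of Sevir.9G171400 within it was higher in both shr2 libraries.

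Cluster 3 also held most UMIs of Sevir.2G446400 and Sevir.5G455300. Sevir.2G446400 had 107 and 72.3 CPM there in shr2, against 34.8, 29.1 and 24.4 CPM in wild type. In cluster 12 it had no UMI in either genotype, which allows up to 4.14 CPM in shr2 and 2.18 CPM in wild type at 3 counts over the summed libraries. Sevir.5G455300 had 62.3 and 132 CPM in cluster 3 in shr2 and 33.2, 42.2 and 36.0 CPM in wild type. It was higher still in cluster 14, with 114.1 and 155.3 CPM in shr2 and 16.2, 98.3 and 37.4 CPM in wild type. The wild-type libraries disagree there, on 11 to 75 UMIs.

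Other members were highest elsewhere. Sevir.5G415900 had its highest level in cluster 14, with 167 and 211 CPM in shr2 and 104.7, 61.6 and 31.1 CPM in wild type. Sevir.5G378900 was highest in cluster 6 in shr2, with 149 and 117 CPM, against 82.7, 13.3 and 19.2 CPM there in wild type, where its highest cluster by the mean was 3. In the initial clustering its highest cluster was the same in both genotypes. Sevir.1G201100 had 173 and 287 CPM in cluster 16 in shr2 and 37.0, 76.7 and 60.6 CPM in wild type. That cluster made up 1.09% and 3.57% of the barcodes in shr2 and 1.71%, 1.70% and 1.82% in wild type, so shr2 replicate 2 had the largest share as well as the highest level. The share of all its UMIs found there was 4.15% and 20.1% in shr2 and 6.23%, 15.5% and 13.5% in wild type.

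Sevir.1G183300 and Sevir.9G149100 were highest in cluster 15, with means of 199.7 and 244 CPM in shr2 and 43.3 and 38.3 CPM in wild type. Cluster 15 was shallow, with 1058 and 1836 UMIs per barcode in shr2 and 1421 to 1865 in wild type. For Sevir.9G149100 it rests on 76 and 45 UMIs in shr2 and on 4, 12 and 11 in wild type. Its lowest mean was in cluster 12, another shallow cluster, at 8.30 CPM in shr2 and 3.73 CPM in wild type, on at most 4 UMIs in a library. Free RNA could add to the counts of every cluster, and its part in the CPM may differ with the depth of the cluster. The lowest cluster mean of a member in shr2 lay between 0 and 75.7 CPM. The part of free RNA in these values was not tested.

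**Figure D4:**
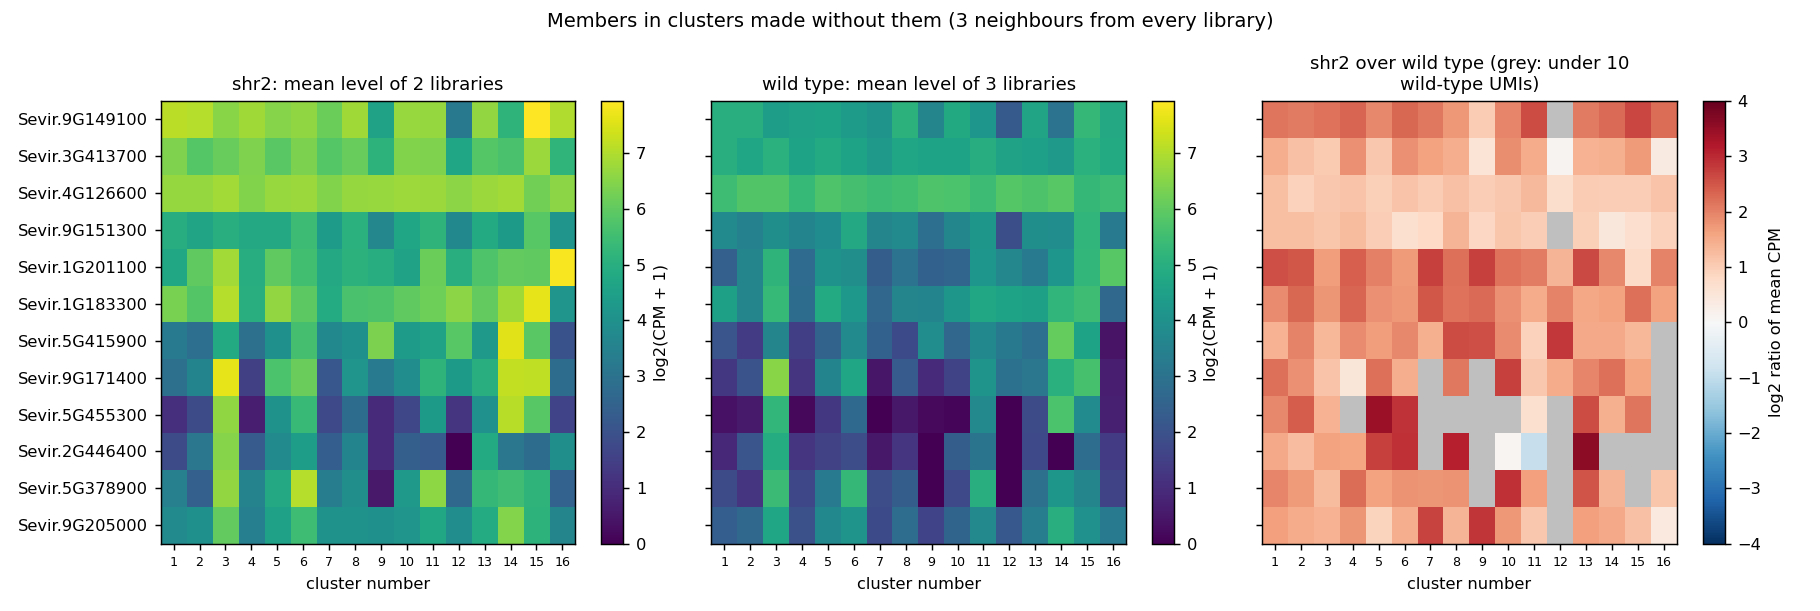
Mean level of each member (rows) in the 16 clusters made without the members (columns), as log2 of CPM plus 1, in shr2 (left) and wild type (middle), and the log2 ratio of the mean shr2 to the mean wild-type CPM (right, grey where wild type had under 10 UMIs). Sevir.4G126600 is nearly uniform, with a ratio of 1.63 to 2.47 in each cluster, and Sevir.9G171400, Sevir.2G446400 and Sevir.5G455300 stand out in cluster 3 in both genotypes.

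Setting the shares of the clusters equal in all libraries left 7 of the 12 members at a ratio of 2 or more in the second clustering, of which Sevir.2G446400 then had a mean under 10 CPM, and 4 in the initial one, which covers fewer of the cells. In the second clustering Sevir.9G149100 had 92.8 and 104.6 CPM in shr2 after this step, against 15.05, 25.1 and 25.7 CPM in wild type, a ratio of lowest to highest of 3.61. Sevir.5G455300 had 19.995 and 29.9 CPM in shr2 and 4.26, 12.2 and 6.90 CPM in wild type, a ratio of 1.64. Sevir.5G378900 came to 1.70, Sevir.9G151300 to 1.76, Sevir.4G126600 to 1.84 and Sevir.9G205000 to 1.91. Each of these was still higher in both shr2 libraries than in every wild-type library. Sevir.1G201100, which had the largest ratio before this step, came to 2.61 in the second clustering and to 1.44 in the initial one. In the initial clustering Sevir.2G446400 came to 1.36 and Sevir.5G455300 to 1.04, while Sevir.9G149100 stayed at 3.18. Cluster shares differed between libraries, and their part in the members' sums was not tested beyond these values.

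By the prefix of the identifier, 4 members lay on chromosome 9, 3 on 5, 2 on 1 and 1 each on 2, 3 and 4, and none had the prefix 6, 7, 8 or J. Prefix 9 held 33.3% of the members and 19.5% of the kept genes, and prefix 5 held 25% of the members and 14.9% of the kept genes. With 12 members these shares rest on few genes. The prefixes without members together held fewer of the kept genes than prefix 9. No 2 members were next to each other in the gene list. Between Sevir.1G183300 and Sevir.1G201100 lay 177 genes, and the members of prefix 5 were 369 and 393 genes apart.

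The closest members were Sevir.9G149100 and Sevir.9G151300, with 21 genes between them, of which 6 were kept. In the 25 genes on either side of Sevir.9G149100, 14 were kept, of which 6 were higher in both shr2 libraries and 1 lower, and around Sevir.9G151300 the counts were 6 higher and 3 lower of 13. Over all kept genes, 16.1% were higher and 10.7% lower. Both windows overlap and each counts the other member, and for the remaining 10 members between 0 and 5 kept neighbours were higher. Sevir.9G150500, between the 2 members and named after its values were seen, had 560 and 730 CPM in shr2, against 184, 310 and 295 CPM in wild type. Its ratio of lowest shr2 to highest wild-type CPM was 1.81, short of the limit. Sevir.9G152400, beyond the second member, had 213 and 146 CPM in shr2 and 101, 56.0 and 56.8 CPM in wild type. The same stretch held a gene that moved the other way, Sevir.9G152200, with 7.53 and 6.30 CPM in shr2 and 37.6, 29.9 and 31.2 CPM in wild type. It is among the 8 genes at least 2-fold lower in every shr2 library. Distances in bases and sequences of these genes were not used here, and reads of near-identical or overlapping genes could be split by the counting.

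**Figure D5:**
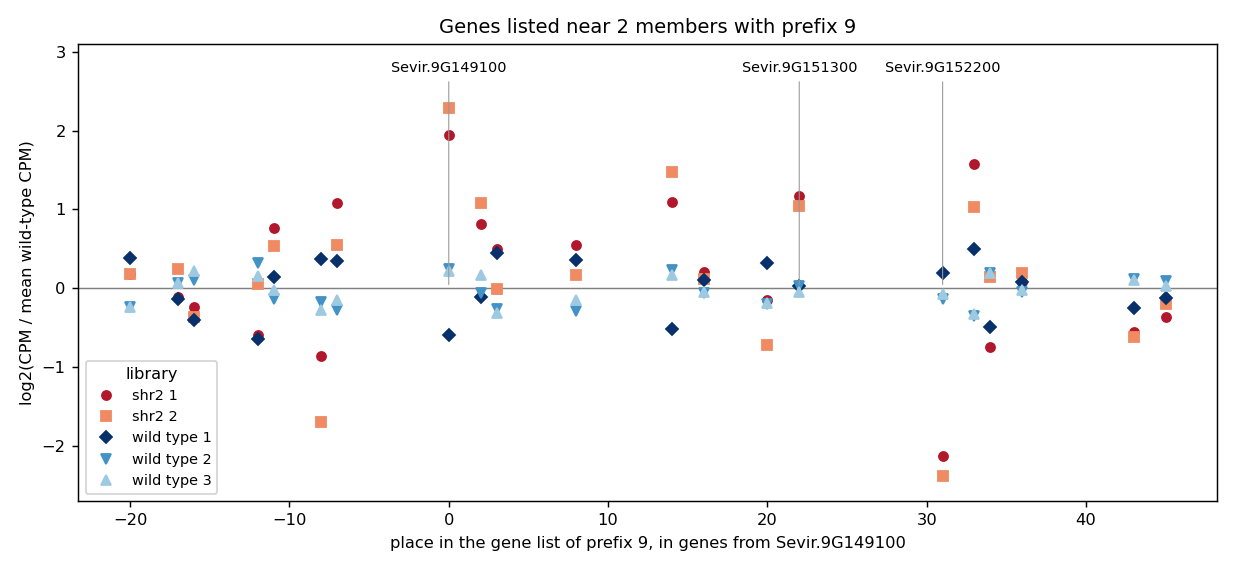
Log2 of CPM over the mean wild-type CPM for kept genes near Sevir.9G149100 and Sevir.9G151300, by place in the gene list (genes from Sevir.9G149100), in shr2 (red and orange) and wild-type libraries (blues). Both members and Sevir.9G150500 (place 14) have both shr2 libraries above the wild-type libraries, and Sevir.9G152200 (place 31) has both below.

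A test over all genes gives the background for these values. With edgeR's quasi-likelihood test on the sums of all barcodes, 0 of 18944 genes passed an adjusted p of 0.05 (percent called 0), and 1974 had an unadjusted p under 0.05. DESeq2 called 271 genes on the same sums, 117 higher and 154 lower in shr2. The members were chosen on this contrast, so no p is given for them.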

How the data were processed

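Single-cell RNA libraries of 2 shr2 and 3 wild-type samples were deposited as UMI counts per gene and barcode. Per the file headers, the authors' count matrices came from cellranger 5.0.1. The submitters' processing notes name Cell Ranger 5.0.1 and Seurat 4.3.0. The genome build is not given in the sources used here. The deposited counts were whole numbers, with no barcode under 500 UMIs. All barcodes were kept and doublets were not called.

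Counts were summed per library, scaled to CPM by the plain total, and members chosen by the rule given above. The members, lists and rules for naming genes were chosen with earlier results of these data known. Members named are those with the highest shr2 level, largest ratio, highest or lowest share of cells, largest correlation in a group, or closest to the limit of 2, which took in all 12. Replicate labels describe independent replicates, and cells were not used as replicates.

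Cells were thinned to 3000 UMIs without replacement in numpy 2.4.6. Clusters used 2000 variable genes without the members, centred within each library, 30 principal components, 15 neighbours and the Leiden method (leidenalg 0.10.2) at resolution 1. The background fit used edgeR 4.0.16 in R 4.3.3 with filterByExpr, TMM and Benjamini-Hochberg adjustment, with DESeq2 1.42.0 as the alternative. The member rule and the edgeR step were run on simulated data to check the code. Counts simulated for the rule differed between libraries only by depth, counting error and a set of raised genes. The real libraries differed more widely, so how the rule behaves on such libraries was not tested.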

Additional observations from a re-analysis of the deposited data

How the results depend on the processing

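The number of genes chosen was 12. It came to 40 with a mean of at least 1 CPM, 318 with no limit on low values, 2 with at least 50 CPM, 47 at 1.5 times and 4 at 3 times. Leaving out 1 library at a time gave 14 to 152 genes. It was 12 with TMM-scaled totals, of which 9 were among the 12 members, 18 with the 100 most abundant genes out of the totals (10 members), 9 with every cell weighted equally (7 members) and 11 without barcodes over 3 times the library's median UMIs (11 members), the last chosen after seeing the data. TMM moved shr2 against wild type by -0.09 on the log2 scale. In the 7 alternatives of scaling, cells and cluster shares no member's ratio of lowest shr2 to highest wild-type CPM fell below 1, and in the 6 that leave out or sum libraries it cannot fall. The lowest log2 ratio was 0.06, for Sevir.5G455300 with equal cluster shares. The cause of these shifts was not tested.

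The edgeR count of 0 became 7 with no filter on low counts and 271 with DESeq2, and stayed 0 without any 1 library, with 777 to 5091 genes at an unadjusted p under 0.05. The mean over libraries of the median r between members was 0.00946 and came to 0.00402 at 1000 UMIs per cell.

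The labels give shr2 and wild type the same replicate numbers 1 and 2. With the replicate block edgeR called 34 genes, 21 higher and 13 lower. Wild-type replicate 3 is alone in its block, so the genotype effect in that fit rests on the libraries numbered 1 and 2. Same-numbered libraries deviated from their group means together (r 0.769 and 0.752). The deviations of the 2 shr2 libraries from their own mean mirror each other, so these values are not independent of each other. For the same reason, exchanging the shr2 libraries keeps the size of each r and turns its sign. By the SD of the log2 ratio, same-numbered libraries were 0.44 and 0.45 apart. Wild-type replicate 1 was 0.54 from shr2 replicate 2, and wild-type replicate 2 was 0.83 from shr2 replicate 1. Wild-type replicate 3, whose number no shr2 library here shares, was 0.46 from shr2 replicate 2 and 0.83 from shr2 replicate 1. What lies behind the likeness was not tested. Nothing in the labels says that a number marks a shared plant or day.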
